A study of Mus musculus with 8 samples.

Results

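Mptx1 and Mptx2 are the mucosal pentraxins of the mouse, a pair of related genes on chromosome 1, 1060 kb apart, that code for small secreted proteins. Both were taken by name from the counts of sorted Paneth cells, as 2 of the 55414 genes in the table, and they were selected on their values in these same 8 mice: their levels and their difference between diets were known when they were chosen. That difference is therefore given as a description, and where the fit across all genes is quoted for the pair, it is as a count from which nothing is read. All mice were C57BL/6J with no other allele, and they had free access to standard chow (4 mice) or to zinc depleted chow (4 mice) for 7 weeks. Paneth cells were collected by FACS from a cell suspension of the small intestine, and the RNA of each mouse gave 1 stranded mRNA library. No age is stated for the mice, and the sorted cells of 1 mouse come from all of its crypts together.

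Pentraxins are secreted proteins that assemble into flat rings and bind their ligands with the help of calcium. The short pentraxins C-reactive protein (Crp) and serum amyloid P component (Apcs) come from the liver, circulate in blood, recognise microbial surfaces and dying cells, and can engage complement and Fc receptors. Mucosal pentraxins are their relatives of the gut epithelium. In the mouse small intestine, Mptx2 is known as a product of Paneth cells, the secretory cells at the crypt base that release alpha-defensins, lysozyme and other antimicrobial proteins from zinc-rich granules.

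Both genes are on chromosome 1 (GRCm39). Mptx2 (ENSMUSG00000079180) occupies 173101949 to 173105344 on the minus strand, and Mptx1 (ENSMUSG00000026531) 174158084 to 174160439 on the plus strand. GENCODE M39 gives each of them 1 transcript with 2 exons. The first exon has 119 bases in both genes, the second 680 in Mptx1 and 675 in Mptx2, and the intron 1557 and 2602 bases. Both coding sequences have 657 bases and code for 219 residues. Crp (plus strand, 172525614 to 172660598) and Apcs (minus strand, 172721528 to 172722611) are on the same chromosome, 576 kb and 380 kb from Mptx2 by their starts, whereas Mptx1 is 1060 kb from Mptx2 on its other side.

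The 2 mRNAs are near copies, and this decides how well their reads can be told apart. Of 794 aligned mRNA bases 734 were identical (92.4%), of 657 coding bases 604 (91.9%), and of the 219 coded residues 186 (84.9%). The differences were not spread evenly: the first exon held 1 among 119 bases and the second exon 59 among 675. The coding part of the first exon is shown here as a stretch that hardly separates the genes (Mptx1 at chr1:174158139-174158202 on the plus strand, Mptx2 at chr1:173105226-173105289 on the minus strand, both 5′ to 3′ along the mRNA, with the differing base in capitals).
Mptx1: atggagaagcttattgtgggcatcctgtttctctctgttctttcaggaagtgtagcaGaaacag
Mptx2: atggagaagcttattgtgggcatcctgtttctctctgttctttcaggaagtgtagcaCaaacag
A stretch of 70 coding bases in the second exon held 12 differences, the most of any such window, and is shown as the part that separates the genes best (Mptx1 at chr1:174160250-174160319, plus strand, and Mptx2 at chr1:173102064-173102133, minus strand, with differing bases in capitals).
Mptx1: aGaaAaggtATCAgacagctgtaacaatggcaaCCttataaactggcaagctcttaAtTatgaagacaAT
Mptx2: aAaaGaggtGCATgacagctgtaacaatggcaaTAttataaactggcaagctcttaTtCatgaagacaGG
Over all windows of 70 bases along the mRNA, the median number of differences was 6 and the range 0 to 12. Of these windows, 83 were identical in both genes and 193 had at most 2 differences. A window found nowhere else among annotated transcripts or in the genome made up 88.6% of the windows of either gene. With 50 bases the share was 82.1% for Mptx1 and 82.0% for Mptx2, and with 100 bases it was 96.7% for both. Apart from each other, neither mRNA had another near-identical match among transcripts or in the genome. The search starts from runs of identical bases and can miss diverged relatives.

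**Figure D1:**
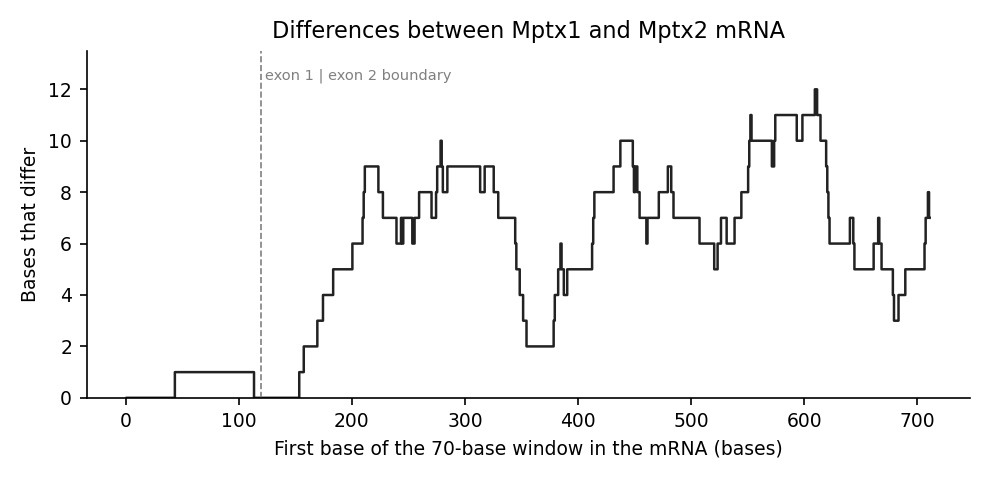
Number of bases that differ between Mptx1 and Mptx2 (y axis) in each window of 70 bases of the mRNA, by the position of its first base (x axis, bases), with the dashed line at the end of the first exon. Windows that start in the first exon hold 0 or 1 difference, and the window with the most holds 12.

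Sequence upstream of the gene starts is also alike in the pair, and it is shown because both genes were detected in the same cells at very unequal levels. RefSeq gives 250 bases before its start site (GRCm38.p6), and each stretch was found exactly once on GRCm39 (Mptx1 at chr1:174157834-174158083, plus strand, 250 bases; Mptx2 at chr1:173105345-173105573, minus strand, 229 bases up to the GENCODE start, which lies 21 bases before that of RefSeq). The 2 sequences were identical at 197 of 228 aligned bases (86.4%), with 23 positions in gaps. Capitals mark the letters TATAA, the core of a TATA box, on the strand shown.
Mptx1: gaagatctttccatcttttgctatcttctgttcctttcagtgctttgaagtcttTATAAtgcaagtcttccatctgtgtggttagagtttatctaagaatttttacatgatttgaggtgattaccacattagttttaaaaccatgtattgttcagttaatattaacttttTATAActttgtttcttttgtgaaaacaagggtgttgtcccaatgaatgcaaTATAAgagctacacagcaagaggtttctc
Mptx2: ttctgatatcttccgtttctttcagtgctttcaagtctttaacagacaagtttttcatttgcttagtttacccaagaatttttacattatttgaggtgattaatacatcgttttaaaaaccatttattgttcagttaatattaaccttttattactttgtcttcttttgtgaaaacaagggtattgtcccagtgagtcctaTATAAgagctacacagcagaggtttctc
In windows of 300 bases around the RefSeq start and on both strands, TATAA occurred 5 times for Mptx1 and 1 time for Mptx2, and 24.9% of 32851 promoters held at least 1 match. The match closest to the GENCODE start on the strand shown had its first base 29 bases before it in Mptx1 and 28 bases before it in Mptx2. GTTAAT, part of the site of the hepatocyte nuclear factor HNF1, occurred 2 times in each window, once on each strand, and in both genes its plus-strand match began 96 bases before the start (7.1% of promoters had a match). The letters TTCNNNGAA of STAT factors (8.3% of promoters) were not in either window. The same held for TGCACNC (13% of promoters) and TGCGCNC (15.4%), the core letters of metal response elements. Such matches describe letters only, and binding was not measured.

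Libraries held 8557690 to 11826416 counts on standard chow and 9924102 to 12648005 on zinc depleted chow, and a level of 3 counts was between 0.237 and 0.351 CPM. CPM stands for the counts of a gene in a library scaled to a total of 1000000. Scaling factors of edgeR's TMM method, which sets libraries to the bulk of their genes, ranged from 0.719 to 1.57. Paneth cell products took 572151 to 700774 CPM on standard chow and 654388 to 751659 CPM on zinc depleted chow, led by Defa24. In zinc depleted mouse 3 the summed level of 10 tuft cell markers was 500.0 CPM, against 19.0 to 66.1 CPM in the other zinc depleted mice and 65.1 to 110.9 CPM on standard chow. Both pentraxins were highest in zinc depleted mouse 4.

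Mptx2 was among the leading transcripts of these cells. On standard chow it had 7235, 8345, 7200 and 8944 CPM in mice 1 to 4, and on zinc depleted chow 16037, 15225, 12140.5 and 25300.2 CPM. All zinc depleted mice lay above all standard mice, and mouse 4 stood highest among them. In sorted cells measured in bulk, more RNA per cell and a larger share of the cells that hold it cannot be told apart. These levels rest on 61619 to 319997 counts per mouse, so counting error is small beside the spread between mice. Mptx2 alone held 0.72% to 0.894% of all counts on standard chow and 1.21% to 2.53% on zinc depleted chow. By CPM it ranked between 10 and 12 among all genes in the standard mice and between 8 and 10 in the zinc depleted mice.

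Mptx1 was detected in every mouse but at a low level. On standard chow it had 7.86, 8.65, 9.0 and 11.7 CPM (93, 91, 77 and 117 counts), and on zinc depleted chow 21.1, 17.0, 7.41 and 31.4 CPM (209, 187, 85 and 397 counts). Zinc depleted mice 1, 2 and 4 lay above all standard mice, while mouse 3 lay below all of them, so the diets overlapped. The exact Poisson interval of mouse 3 (95%, counting error only) ran from 5.92 to 9.17 CPM and reached into the range of the standard mice. Between mice of a diet, the SD on the log2 scale was 0.60 for Mptx1 and 0.333 for Mptx2. Relative to the mean of the standard mice, zinc depleted mice 1 to 4 stood at 1.11, 0.815, -0.28 and 1.66 for Mptx1 on that scale. For Mptx2 they stood at 1.02, 0.947, 0.62 and 1.68, so the 2 genes parted most in mouse 3.

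**Figure D2:**
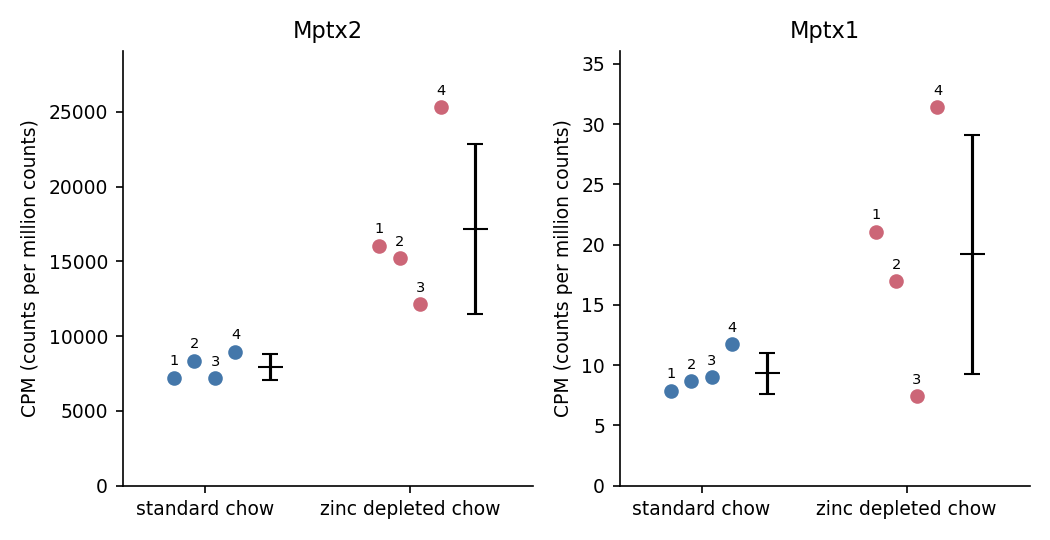
Level of Mptx2 (left) and Mptx1 (right) in CPM in each mouse on standard chow (blue) and zinc depleted chow (red), numbered by replicate, with the mean and SD of each diet (black). Every zinc depleted mouse lies above every standard mouse for Mptx2, whereas zinc depleted mouse 3 has the lowest Mptx1 value, 7.41 CPM.

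The mean level of Mptx2 was 7931 ± 859 CPM on standard chow and 17176 ± 5670 CPM on zinc depleted chow (SD, n = 4 each), a ratio of 2.17, or 1.82 without zinc depleted mouse 4. The lowest zinc depleted mouse had 1.36 times the level of the highest standard mouse. For Mptx1 the means were 9.31 ± 1.68 and 19.2 ± 9.93 CPM (SD, n = 4 each), a ratio of 2.06, or 1.63 without mouse 4. In the edgeR fit across all genes, with TMM scaling, the log2 fold change (zinc depleted minus standard) was 1.45 for Mptx2 (SE 0.337) and 1.40 for Mptx1 (SE 0.507). With the totals of the libraries as the only scaling these values were 1.11 and 1.05, and the median of all genes tested was then -0.369 instead of -0.00524, so relative to the bulk of genes the pair stood at a like distance under both scalings. The point estimates of the 2 genes thus differed by less than the SE of either.

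Neither gene was among those called in that fit. Of 10911 genes tested, 16 were called higher (0.147%) and 28 lower (0.257%) on zinc depleted chow at a Benjamini-Hochberg adjusted p of less than 0.05 in edgeR's quasi-likelihood test, and 0 of the 2 pentraxins were among them. At an unadjusted p under 0.05 there were 1142 genes in both directions. This count of members depended on the mice and the tool: without zinc depleted mouse 3 both pentraxins were called, and Mptx2 was also called with DESeq2, with no filter on low counts, and with library totals as the only scaling. By size alone, 37 of the genes tested had a larger log2 fold change than Mptx2 and 40 a larger one than Mptx1. A full separation of the mice, with the zinc depleted values higher, was seen in CPM for 33 genes tested (0.302%) and in TMM-scaled CPM for 251 (2.3%). Mptx2 was among these on both scales and Mptx1 on neither. Since the pair was selected on this contrast, nothing is read from its place in these counts.

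A comparison of levels between genes needs their length, so the pair was compared per kilobase of exon. The level of Mptx2 exceeded that of Mptx1 by 9.85, 9.92, 9.65 and 9.58 on the log2 scale in the standard mice and by 9.58, 9.82, 10.7 and 9.66 in the zinc depleted mice. The mean of 9.85 ± 0.36 (SD, n = 8) is a 920-fold difference, and single mice ranged from 766-fold to 1650-fold. The highest of these values belonged to zinc depleted mouse 3, and the mean was 9.73 on the log2 scale without it. In length-corrected units (TPM, scaled to the same total and computed here from the counts and exon lengths), Mptx2 had 12808 ± 5970 and Mptx1 14.4 ± 8.15 (SD, n = 8), which put them at ranks 9 and 593 of the 18723 genes with a TPM above 0.

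Since the mRNAs are near copies, the counts of Mptx1 were set against those of both genes together. Mptx1 made up 0.109%, 0.104%, 0.125% and 0.131% of them in the standard mice. In the zinc depleted mice its share was 0.131%, 0.111%, 0.061% and 0.124%. In 7 of 8 mice the share thus lay between 0.104% and 0.131%, with exact binomial intervals (95%, counting error only) that overlapped. Zinc depleted mouse 3 had 0.061% (0.0488 to 0.0755%), and its interval lay below those of all other mice. The mean share was 0.117% ± 0.013 on standard chow and 0.107% ± 0.0316 on zinc depleted chow (SD, n = 4 each), or 0.122% without zinc depleted mouse 3, which puts it above standard chow. In the other 7 mice Mptx1 counts thus followed Mptx2 counts at a nearly fixed share. Whether reads of Mptx2 were counted on Mptx1 was not tested, since no source used here says how reads that fit both genes were treated. The level of Mptx1 and its difference between diets are uncertain to that extent.

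**Figure D3:**
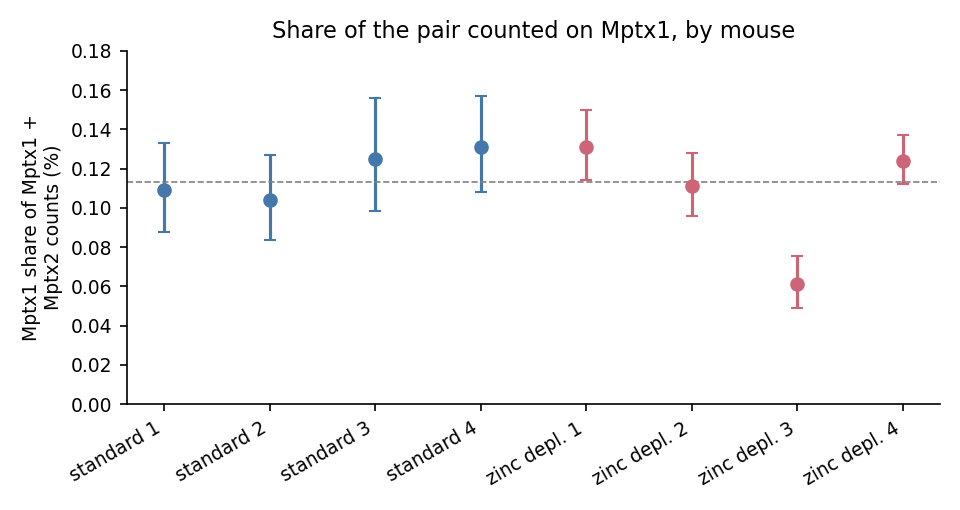
Share of the counts of both pentraxins that was counted on Mptx1 (y axis, %), by mouse on standard chow (blue) and zinc depleted chow (red), with exact binomial 95% intervals and the share over all mice, 0.113%, as the dashed line. The share of zinc depleted mouse 3, 0.061%, lies below the intervals of the other 7 mice.

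Counts of Mptx2 were also set against those of other abundant products of the same cells, which removes the scaling of the libraries. These are ratios of counts without correction for length, so they serve to compare mice and not genes. Relative to Lyz1, the lysozyme of Paneth cells, Mptx2 had 5.05%, 5.36%, 4.62% and 6.06% in the standard mice and 8.83%, 8.83%, 7.96% and 17.9% in the zinc depleted mice. The ratio of the means was 2.06, or 1.62 without zinc depleted mouse 4. Relative to Itln1, an intelectin that binds microbial glycans, the mean was 11.8% ± 1.40 on standard chow and 28.1% ± 9.36 on zinc depleted chow (SD, n = 4 each), a ratio of 2.39, or 2.04 without mouse 4. Relative to the sum of the Paneth cell products listed, it was 1.21% ± 0.123 and 2.47% ± 0.839, a ratio of 2.04, or 1.70 without mouse 4. The smallest ratio of these 4 comparisons, 1.39, was that relative to Ang4, an antimicrobial ribonuclease of the angiogenin family (60.3% ± 5.16 against 84.0% ± 9.80), and it was 1.44 without mouse 4. In none of the 4 comparisons did the diets overlap. All 4 share the Mptx2 counts, which separated the diets already and were known when the gene was selected. They are therefore not separate results, and nothing is read from this.

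Paneth cell products themselves gave 0 calls by edgeR among the 16 of 17 genes that passed the expression filter. Of these, 5 had an unadjusted p under 0.05 in edgeR, against 1142 of all 10911 genes tested. DESeq2 called 2 of them, Defa21 and Defa22, against 146 of all genes tested. All 16 had a log2 fold change above 0 under TMM scaling, as did 5374 of all 10911 genes tested. The median of the 16 was 0.445, and with library totals only it was 0.11, against -0.369 over all genes tested. Among the 16, Ang4 had the largest value under TMM scaling. Its level was 11669, 14037, 13424 and 13564 CPM in the standard mice and 16906, 16984, 16055 and 33404 CPM in the zinc depleted mice, where mouse 4 again stood apart (log2 fold change 0.99, SE 0.347; edgeR's quasi-likelihood test, adjusted p = 0.276). Defa24, the alpha-defensin with the highest level of all, had 202682 ± 26855 CPM on standard chow and 224110 ± 21449 CPM on zinc depleted chow (log2 fold change 0.46, SE 0.40, adjusted p = 0.754, edgeR). The list leaves out other alpha-defensins, and these differed. Means on standard and zinc depleted chow were 41.8 and 89.0 CPM for Defa41, and 47.1 and 57.3 CPM for Defa28. For Defa29 they were 12376 and 11719 TPM (counts corrected for length).

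Other pentraxins were close to absent from these cells. The family list held 7 genes, of which 1 passed the expression filter and 0 were called by edgeR or by DESeq2, with 0 at an unadjusted p under 0.05. Crp had 10 counts over the 8 mice and Apcs had 1. The long pentraxins Ptx3 and Ptx4 had 0 counts in every mouse, which allows up to 0.237 to 0.351 CPM per library. Ptx3 is made by stromal and myeloid cells among others. Of the neuronal pentraxins, which cluster receptors at synapses, Nptx2 had 30 counts and the receptor Nptxr 32. Nptx1 was the highest of the list, with 3.98 ± 2.90 CPM on standard chow and 3.53 ± 1.29 CPM on zinc depleted chow (SD, n = 4 each; log2 fold change 0.26, SE 0.386, adjusted p = 0.88, edgeR), and its log2 fold change was -0.189 with library totals as the only scaling. Mptx2, with 1110343 counts, thus made up nearly all pentraxin counts of these libraries. Mptx1 had 1256 counts and Nptx1 330.

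Genes whose products are known to act with circulating pentraxins (complement components, ficolin, mannose-binding lectins and Fc receptors) were also low. Of 13 such genes, 1 passed the expression filter, 6 had 0 counts in all mice and 0 were called by edgeR. C4b, a complement component of the classical and lectin pathways, was the one that passed. It had 11.2, 5.04, 4.21 and 2.81 CPM in the standard mice and 8.26, 14.9, 15.5 and 29.8 CPM in the zinc depleted mice, and the diets overlapped. Its log2 fold change was 2.02 (SE 0.411) and missed the threshold (edgeR's quasi-likelihood test, adjusted p = 0.078). It was called without zinc depleted mouse 1, 3 or 4 (adjusted p 0.00962, 0.0313 and 0.0426, edgeR), with no filter on low counts (5.24e-09), without edgeR's robust option (0.0324) and by DESeq2 (7.3e-06), and with the other alternatives the adjusted p ran from 0.0734 to 0.289.

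Acute phase genes and targets of interleukin-22 and STAT3 were followed because short pentraxins belong to the acute phase response of the liver. This list, like the others, was chosen with earlier results of these data known. Of 22 genes on that list 14 were tested, 2 rose and 0 fell. Over all 10911 genes tested, 0.147% rose and 0.257% fell. At an unadjusted p under 0.05 in edgeR there were 5 list genes, against 1142 of all genes tested. The median log2 fold change of the list was 0.234, or -0.129 with library totals as the only scaling. Both genes that rose code for secreted C-type lectins that kill bacteria. Reg3b had 124, 202, 117 and 152 CPM in the standard mice and 487, 608, 345 and 742 CPM in the zinc depleted mice. It rose by a log2 fold change of 2.25 (SE 0.328; edgeR's quasi-likelihood test, adjusted p = 0.0174), higher in 4 of 4 zinc depleted mice than in any standard mouse. Over the alternatives its adjusted p ran from 7.87e-22 to 0.0727, and the call was lost without standard mouse 1 (0.0727), standard mouse 4 (0.0598) or zinc depleted mouse 4 (0.0531). Reg3g had 918, 1044, 637 and 733 CPM on standard chow and 1923, 1772, 1619.8 and 2461 CPM on zinc depleted chow. Its log2 fold change was 1.6 (SE 0.245, adjusted p = 0.0071, edgeR), it was called in every alternative (adjusted p 2.92e-10 to 0.0424), and its diets did not overlap. The serum amyloid A genes Saa1, Saa2 and Saa3, classical acute phase genes, had 28, 36 and 8 counts over all mice and were not tested. The receptor genes Il22ra1, Il10rb, Il6ra and Il6st and the transcription factor gene Stat3 were tested and not called.

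**Figure D4:**
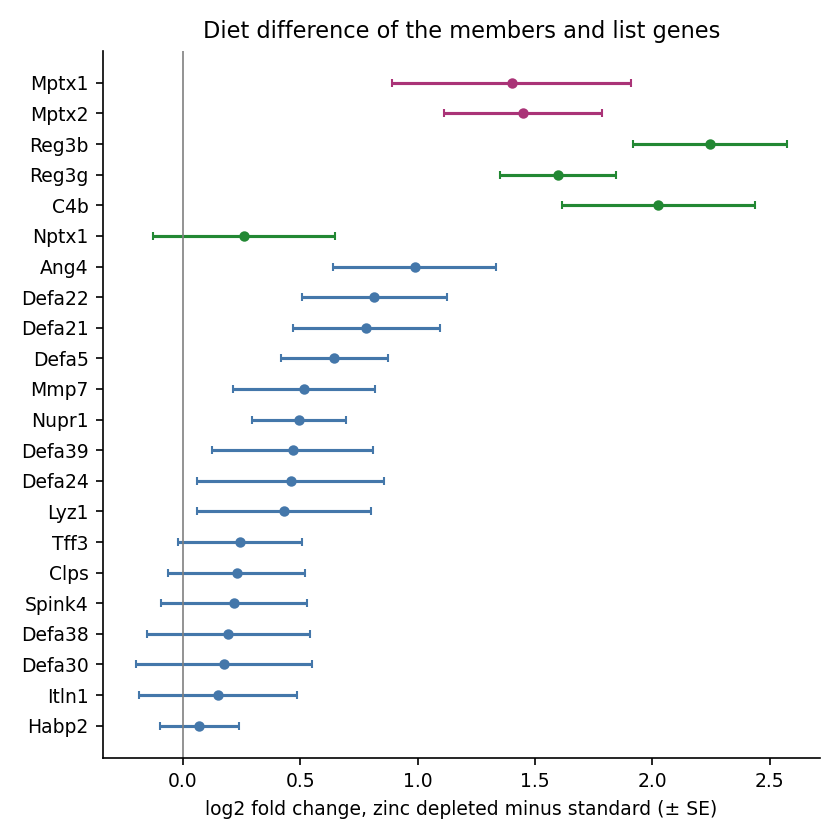
Log2 fold change between diets (zinc depleted minus standard, x axis) with its SE from the edgeR fit for the 2 pentraxins (purple), genes of the response, partner and family lists (green) and Paneth cell products (blue). The pentraxins stand at 1.40 and 1.45, Reg3b at 2.25, Reg3g at 1.6 and the 16 tested genes of the Paneth cell product list at 0.99 or less. Alpha-defensins outside that list, such as Defa41, are not shown.

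Paneth cell products took most of the counts of every library, as the label of the cells has it, and markers of the other cells that a sort from intestine could hold were low or took a small share. Of 76 marker genes in 8 lists 42 were tested, and 0 rose and 2 fell in the edgeR fit. Over all 10911 genes tested, 0.147% rose and 0.257% fell. In edgeR, 12 marker genes had an unadjusted p under 0.05, against 1142 of all genes tested. Of the 12, 8 were stem and transit amplifying markers. DESeq2 called 4 marker genes (Top2a, Mcm6, Olfm4 and the goblet cell kallikrein Klk1), against 146 of all genes tested. Goblet cell markers (10 tested, median log2 fold change 0.416) had their highest sum in zinc depleted mouse 4, as both pentraxins did. That sum was mostly Ang4, which is also a Paneth cell product, and without Ang4 it was 2969 to 3518 CPM on standard chow and 2459, 2755, 4751 and 5327 CPM in zinc depleted mice 1 to 4. Tuft cell markers (8 tested, median 1.12, but -0.308 without zinc depleted mouse 3) stood out in zinc depleted mouse 3, the mouse with the lowest Mptx1, where Dclk1, a kinase that marks tuft cells, had 108.9 CPM against 2.63 to 22.3 CPM in the other mice. Enterocyte markers (10 tested, median -0.124, led by Anpep, and from -0.898 without zinc depleted mouse 3 to 0.696 without standard mouse 3) summed to 251 to 396 CPM on standard chow and 166 to 406 CPM on zinc depleted chow. Enteroendocrine markers (3 tested, median -1.01, led by Sct) summed to 29.6 to 49.0 CPM and 13.3 to 29.9 CPM.

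Stem and transit amplifying markers had the clearest shift among these lists, in the direction opposite to the pentraxins. Their summed level was 1619.7 to 2756 CPM on standard chow and 675 to 1344 CPM on zinc depleted chow, led by Olfm4, with a median log2 fold change of -0.796 over 10 tested genes. Top2a, a topoisomerase of dividing cells, fell (log2 fold change -1.18, SE 0.207, adjusted p = 0.0229, edgeR), with 27.3 to 69.8 CPM on standard chow and 7.53 to 25.2 CPM on zinc depleted chow. Mcm6, a subunit of the replicative helicase, fell too (log2 fold change -0.88, SE 0.178, adjusted p = 0.0376, edgeR), with 22.6 to 50.1 CPM and 9.80 to 19.1 CPM. Both calls were lost with library totals as the only scaling, where the log2 fold changes were -1.52 and -1.26 (adjusted p 0.116 and 0.129, edgeR), and without standard mouse 2, standard mouse 4, zinc depleted mouse 2 or zinc depleted mouse 4, and that of Mcm6 also without standard mouse 1 or zinc depleted mouse 3 and without the robust option of edgeR (adjusted p 0.0502). Of the immune markers 1 was tested (Lyz2, with a median log2 fold change of 0.644) and 7 of 10 were at 0 in every mouse. Stromal and vessel markers (6 of 10 at 0 everywhere, led by Vwf) and erythroid markers (3 of 6 at 0 everywhere, led by Hbb-bs) had no gene tested, and their sums were at most 2.00 and 0.761 CPM. The part of any of these cells in the values of the pentraxins was not tested.

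In the order of mean TPM, Mptx2 followed Defa21 (41569.9 ± 8500), Itln1 (40889 ± 5100) and Defa22 (37166 ± 7820), from which it was separated by a wide gap. In no mouse did Mptx2, at most 25444 TPM, reach the lowest value of these genes in any mouse, 26283 TPM. Below it came the alpha-defensin Defa29 (12048 ± 2110), Ang4 (7848 ± 3000) and Spink4 (7049 ± 1150), a protease inhibitor of secretory cells. Over the mice of both diets together, Mptx2 and Defa29 did not differ beyond their spread, which for Mptx2 includes the difference between diets. Their order was not the same in the diets: on standard chow Mptx2 had a mean of 8485 TPM and Defa29 12376 TPM, and on zinc depleted chow 17131 and 11719 TPM.

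Mptx1 stood in a dense part of that order. The next genes above it were Cdc34, a ubiquitin-conjugating enzyme (14.5 ± 2.84 TPM), Hepacam2 (14.5 ± 5.55 TPM) and Pccb, a mitochondrial carboxylase subunit (14.5 ± 4.24 TPM). Those below were Cnpy2 (14.3 ± 1.35 TPM), the mucin glycosyltransferase A4gnt (14.3 ± 4.60 TPM) and Prelid3b (14.3 ± 4.15 TPM). None of these 6 genes differed from Mptx1 (14.4 ± 8.15 TPM) beyond the spread between mice of both diets. This place comes from pooling the diets: Mptx1 had a mean of 9.84 TPM on standard chow and 19.0 TPM on zinc depleted chow, against 14.99 and 14.1 TPM for Cdc34 and 14.6 and 14.1 TPM for Cnpy2, and in single mice its rank ran from 261 to 1626.

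Genes with the most similar pattern were ranked by Pearson's r of log2(CPM + 1) over the 8 mice, among 5790 genes that passed the filter with a mean of at least 10 CPM. All points share the same 8 libraries and the split into diets, so r is given without a p. Most like Mptx2 were Reg3b (0.96), Cblif (0.959), Bbip1 (0.951), Reg3g (0.929) and Defa41 (0.92). Cblif, which codes for the intrinsic factor that carries cobalamin, had 5.33 to 7.22 CPM on standard chow and 15.1 to 48.1 CPM on zinc depleted chow. Bbip1, a subunit of the ciliary BBSome complex, had 9.81 to 12 and 14.0 to 19.4 CPM, and the alpha-defensin Defa41 had 39.8 to 45.9 and 81.1 to 99.4 CPM. For all 5 genes, as for Mptx2, the diets did not overlap, as in 33 of 10911 genes tested (0.302%, zinc depleted higher in CPM). The 5 genes were picked by their r to Mptx2, which separates the diets itself, so nothing is read from this. With the mean of each diet removed, the r of these genes fell to 0.81, 0.817, 0.789, 0.637 and 0.652, and none of them remained among the 5 most similar genes.

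Most like Mptx1 were the alpha-defensins Defa28 (0.939) and Defa40 (0.904), then Mptx2 (0.883), Cblif (0.855) and Ang4 (0.836). Defa28 had 44.6 to 50 CPM on standard chow and 40.6 to 68.4 CPM on zinc depleted chow, with its lowest value, like that of Mptx1, in zinc depleted mouse 3. Defa40 had 1016 to 1414 and 1405 to 2603 CPM. With diet means removed, 3 of these 5 genes remained, and Defa28 stayed first (0.917). The r between the 2 pentraxins was 0.883 over all mice and 0.90 with diet means removed, which made Mptx2 the second most similar gene to Mptx1 and Mptx1 the fourth most similar gene to Mptx2. Since the counts of the pair may share reads, this r is not independent of how reads were assigned.

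**Figure D5:**
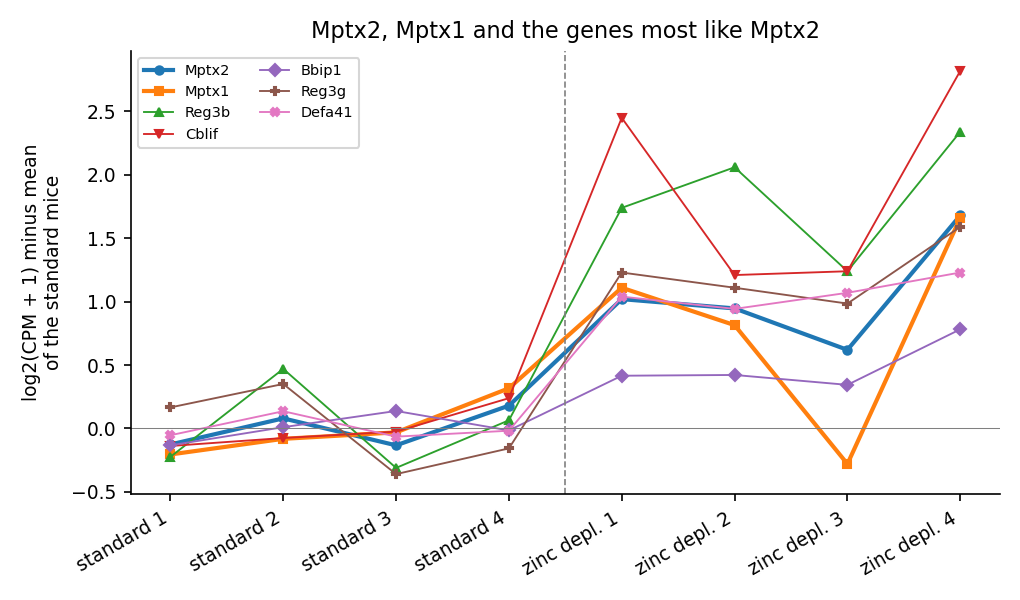
Level of Mptx2, Mptx1 and the 5 genes most like Mptx2 in each mouse, as log2(CPM + 1) minus the mean of the standard mice (y axis), with a dashed line between the diets. Lines only join the values of a gene, since mice of a diet have no order, and all genes but Mptx1 lie above 0 in every zinc depleted mouse, with Mptx1 at -0.28 in zinc depleted mouse 3.

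Genes next to the pair had few counts. Within 100 kb of Mptx2 there are 9 other annotated genes, of which 8 were analysed here. Of these, 3 were at 0 in all mice and 2 had over 100 counts in total. These were Ackr1, an atypical chemokine receptor (296 counts over 8 mice), and the adhesion molecule Cadm3 (364), against 1110343 counts of Mptx2. Or10j2, an olfactory receptor gene on the opposite strand with 387 bases between it and Mptx2, had 5 counts. The DNA sensor Aim2 had 63 and Fcer1a, a chain of the IgE receptor, had 3, while Or10j7, Or10j3 and Or10j3b had 0. Gm70583 was not analysed here.

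Around Mptx1, which had 1256 counts in all, the olfactory receptor genes Or10z1, Or10x1, Or10l1-ps1 and Or10x4 within 100 kb were at 0 in every mouse and Or6p1 had 1 count. Gm69981 was not analysed here. In both neighbourhoods olfactory receptor genes were the most common kind, with 5 around Mptx1 and 4 around Mptx2.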

How the data were processed

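Paneth cells of 8 C57BL/6J mice, 4 per diet, were sequenced as 1 library each, prepared by the stranded mRNA kit of Illumina (TruSeq). The authors deposited raw counts per Ensembl gene, without normalization, and columns were matched to samples by diet and replicate number. The submitters' processing notes list FastQC 0.12.0, STAR 2.7.0a, DESeq2 and mm39 without their roles. Which program counted the reads, and how it treated reads that fit several genes, is not given in the sources used here. Of 55414 identifiers, 54749 were found in GENCODE M39. The mice are biological replicates, so p-values measure the spread between mice. Pairs of libraries of a diet differed by more than sampling noise in every case, with a chi-square per degree of freedom between 5.7 and 59.3.

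CPM (a total of 1000000 per mouse) and TPM (summed exon length) were computed from the counts. For the diets, R 4.3.3 and edgeR 4.0.16 were used (TMM, expression filter with 10911 genes kept, robust quasi-likelihood test, Benjamini-Hochberg adjustment, threshold 0.05), tested on simulated data first, with limma 3.58.1 installed beside it. DESeq2 1.42.0, other scalings, no filter, no robust option, the replicate number as a block, pseudocounts of 0.5, 1 and 5, and each mouse left out in turn were alternatives. Counts of called genes and medians describe 12 gene lists: pentraxin family, pentraxin partners, Paneth cell products, acute phase and IL-22/STAT3 response, and 8 lists of cell markers. Ang4 and Tff3 are on 2 lists each. The pentraxins and all lists were chosen with earlier results of these data known. Of the alternatives, Mptx2 relative to other Paneth cell products, ratios without zinc depleted mouse 4, calls of the pentraxins, the share of Mptx1 without zinc depleted mouse 3 and the goblet sum without Ang4 were added after the data were seen. Intervals and floors cover counting error only.

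Named genes are the pentraxins and their family, list genes that passed the diet test or lead their list, the 5 genes most like each pentraxin, the 3 next above and below in TPM, and genes within 100 kb, of which 1 is not reported here. Outside this rule, Klk1, Lyz1, Saa1, Saa2, Saa3, Stat3 and receptor genes of the response list are named, chosen after their values were seen. Sequences were aligned with Biopython 1.88 and searched with BLAST 2.17.0 on GRCm39, using Python 3.11.15 with numpy 2.4.6, pandas 2.3.3, scipy 1.17.1 and matplotlib 3.10.9.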

Additional observations from a re-analysis of the deposited data

Results flagged for a closer look

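Of 30 groups of 4 mice examined (levels of the pentraxins, the share of Mptx1 and sums of the 12 lists), 3 had a mouse far from the others, where chance gives about 1 in 20. The goblet cell marker sum of zinc depleted mouse 4 was 38730 CPM, and its gap to the next mouse was 0.926 of the range of its diet. The tuft cell marker sum was 500.0 CPM in zinc depleted mouse 3 (gap 0.902) and 110.9 CPM in standard mouse 3 (gap 0.911). None of the 3 was a value of Mptx1 or Mptx2 itself. The mouse with the high tuft cell sum had the lowest share of Mptx1, and the mouse with the high goblet sum had the highest level of both pentraxins. That goblet sum was mostly Ang4 (33404 CPM), which is also a Paneth cell product. Without Ang4 the sums of zinc depleted mice 1 to 4 were 2459, 2755, 4751 and 5327 CPM, against 2969 to 3518 CPM on standard chow. Mouse 4 thus still had the highest sum of all mice, but mouse 3 was close to it.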

How the results depend on the processing

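The number of genes called between diets was 44 in the fit reported (16 higher and 28 lower), 37 with DESeq2 size factors, 42 with TMM factors set without Defa genes and the pentraxins, 11 with library totals only, 251 with no filter on low counts, 25 without the robust option (14 higher, 11 lower) and 146 with DESeq2 (63 higher, 83 lower). Leaving out 1 mouse gave 8 to 36 genes: 8 without standard mouse 2 or 4, 13, 17 and 26 without zinc depleted mouse 2, 4 and 1 (12 of the 17 higher), and 36 (27 higher) without zinc depleted mouse 3. The cause was not tested. The replicate number as a block gave 53 genes (24 higher, 29 lower) and log2 fold changes of 1.29 for Mptx1 and 1.41 for Mptx2. Deviations of mice with the same number correlated at 0.104, 0.0781, 0.012 and 0.0831, so the numbers were not taken to pair the mice. The log2 fold change of Mptx1 (1.40) ran from 1.04 without zinc depleted mouse 4 to 1.72 without zinc depleted mouse 3, and was 0.66 as a difference of mean log2(CPM + 5). That of Mptx2 (1.45) ran from 1.19 to 1.65 with 1 mouse left out, was 1.11 with library totals only and 1.07 as a difference of mean log2 CPM with any of the 3 pseudocounts. Both kept their sign in all alternatives, but the pair was selected on this contrast in these mice, so nothing is read from that. The difference between the levels of the pair (9.85) moved by less than its SD in all 10 alternatives. Depth limits Mptx1, with 77 to 397 counts per mouse, and genes under about 0.3 CPM.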
